A study of Homo sapiens with 36 samples.

Results

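Transcripts of 10 effector genes of the integrated stress response were followed during oxidative stress in HEK293T, a line of human embryonic kidney cells. The genes were taken by symbol: *DDIT3*, *CEBPB*, *CEBPG*, *ATF5*, *TRIB3*, *PPP1R15A*, *DDIT4*, *SESN2*, *ASNS* and *CHAC1*. Each matched 1 row of the count table, which gives 10 of 61587 rows, and all 10 were among the 22486 genes with enough counts to be tested. *TXNL1* had been knocked out (KO) in all cells, by CRISPR and with clones grown from single sorted cells. The KO cells then received by lentivirus an empty vector, WT TXNL1, D162R R234D TXNL1, a variant made to lose binding to the proteasome, or SxxS TXNL1, in which the thioredoxin cysteines are replaced. Each of these 4 lines was given DMSO, arsenite or hydrogen peroxide (H2O2). The labels give a single line per construct, so an effect of a TXNL1 variant cannot be told apart from other differences between the lines. The study's methods name stocks in DMSO or water and do not say which was used for arsenite or H2O2. The study's methods give 100 µM arsenite, 600 µM H2O2 and 6 h of exposure, which the sample labels do not state. The 12 groups hold 3 replicates each, in all 36 libraries. The study's methods say that treatments were done in triplicate in six-well plates, but neither they nor the labels say whether the wells came from separate cultures, so p-values measure the spread between these libraries, which may be technical.

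In the integrated stress response, kinases that sense stress phosphorylate the initiation factor eIF2, which lowers translation of most messenger RNAs and raises that of a few, among them the one for the transcription factor ATF4. ATF4 and its partners then raise the transcription of genes for amino acid supply, redox balance and, in prolonged stress, cell death. The same genes feed back on the response, since PPP1R15A brings a phosphatase to eIF2 and TRIB3 and DDIT3 act on ATF4 or its targets. Arsenite is a classical trigger of this response.

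The files hold read counts per gene. Totals ran from 42072410 to 174119002 per library (median 66016833). A pair of WT libraries stood apart before any test: the SD of log2 CPM around the group median over 14057 genes reached 0.54 for replicate 1 of WT cells in arsenite and 0.61 for replicate 2 of WT cells in H2O2, against 0.07 to 0.18 in the other 34. Results that rest on them are given with and without both. Among the other libraries replicate 3 of D162R R234D cells in DMSO was widest (0.175, the next 0.118). It was the highest DMSO library in CPM for *DDIT4*, *TRIB3*, *CHAC1*, *SESN2*, *ATF5* and *ATF4*. *TXNL1* checked the lines: in DMSO it was at 28.6 to 31.7 CPM in the 3 vector libraries and at 51.7 to 66.2 CPM in the 9 complemented ones, and the counts do not separate the edited gene from the construct. The HEK293T markers *VIM* (445 to 670 CPM), *KRT18* (41.7 to 89.8) and *KRT8* (13.4 to 24.5) were present in every library, *NEFM* (at most 0.30) and *PAX2* (at most 0.84) were near 0. Of markers of other cell types, *PTPRC*, *CD3E*, *PECAM1*, *CDH5*, *VWF* and *ALB* stayed under 1 CPM, *DCN* reached 1.02, *COL1A2* 4.84, and *LUM* 3.28 CPM, and *COL1A1* ran from 10.8 to 22.3 CPM.

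ATF4 and its C/EBP partners bind composite C/EBP-ATF elements (CARE). The letters TGATGNAA were searched on both strands of the RefSeq promoter windows, from 250 bases before to 50 after each annotated start on GRCh38.p14. They occurred in 3.62% of 35116 windows and in 3 of the 18 windows of the 10 genes, or, counted by gene, in 4.46% of 27305 genes and in 3 of the 10. A full cyclic AMP response element (TGACGTCA, its own reverse complement) occurred in 1.85% of windows, in 2.25% of genes and in 1 of the 10, *PPP1R15A*. The core of the antioxidant response element (TGACNNNGC, both strands) occurred in 13.3% of windows and in 5 of the 18, or in 16.1% of genes and in 3 of the 10, *PPP1R15A*, *TRIB3* and *CEBPB*. The windows of *TRIB3* overlap and hold the same match (chr20:381335-381343), so the count by window includes this site more than once. The stretches around the CARE and CRE matches are shown, and those around the antioxidant core matches are not. Matches are in capitals and all 30 bases are on the strand of the gene:
ASNS, chr7:97872458-97872487, minus strand, CARE 68 to 61 bases before the start: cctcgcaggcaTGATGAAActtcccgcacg
CHAC1, chr15:40953251-40953280, plus strand, CARE on the opposite strand, 209 to 202 bases before the start: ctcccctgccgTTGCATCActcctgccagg
CEBPG, chr19:33374060-33374089, plus strand, CARE 42 to 35 bases before 1 of its starts: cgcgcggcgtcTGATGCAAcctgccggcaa
PPP1R15A, chr19:48872352-48872381, plus strand, CRE 58 to 51 bases before the start: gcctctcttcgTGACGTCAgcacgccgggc
For *ASNS*, as for *CEBPG*, the match lies before 1 of its annotated starts, and the window of its other start holds none. A match describes the letters only, and the other 6 genes hold neither motif in these windows. The 4 genes shown are among those raised by arsenite below, and so are *SESN2*, *DDIT3*, *DDIT4* and *TRIB3*, which hold neither.

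In DMSO, levels per gene length (TPM, from the lengths in the deposited table) spanned from 2.19 TPM for *CHAC1* to 121 TPM for *ASNS*, as medians of 12 libraries. *ASNS* lay above all others (100 to 148 TPM). *SESN2* (median 56), *CEBPG* (53.3) and *ATF5* (46.5 TPM) followed. The ranges of *SESN2* (52.6 to 58.7) and *CEBPG* (47.0 to 55.8) overlapped, as did those of *CEBPG* and *ATF5* (44.3 to 52.1). *PPP1R15A* (26.5), *DDIT4* (26.3) and *DDIT3* (19.9 TPM) could not be ordered, since *DDIT4* alone ran from 14.7 to 37.6 TPM. *TRIB3* (12.3) and *CEBPB* (5.97 TPM) stood below them. *ATF4*, shown as a reference only, had a median of 738 TPM. Under arsenite the order changed: *SESN2* led with 572 TPM, ahead of *ASNS* (214), *PPP1R15A* (187), *DDIT4* (137), *DDIT3* (102) and *CEBPG* (91.2), and *ATF5* moved from the fourth place to the eighth with 18.9 TPM. From *ASNS* (147 to 235) over *PPP1R15A* (144 to 222), *DDIT4* (107 to 153) and *DDIT3* (93.7 to 140) to *CEBPG* (64.7 to 102), the ranges of neighbours overlapped. Without the outlying WT library *PPP1R15A* (163 or more) lay above *DDIT4*, and *DDIT4* (122 or more) above *DDIT3* (at most 118). The overlaps of *ASNS* with *PPP1R15A* and of *DDIT3* with *CEBPG* stayed.

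**Figure D1:**
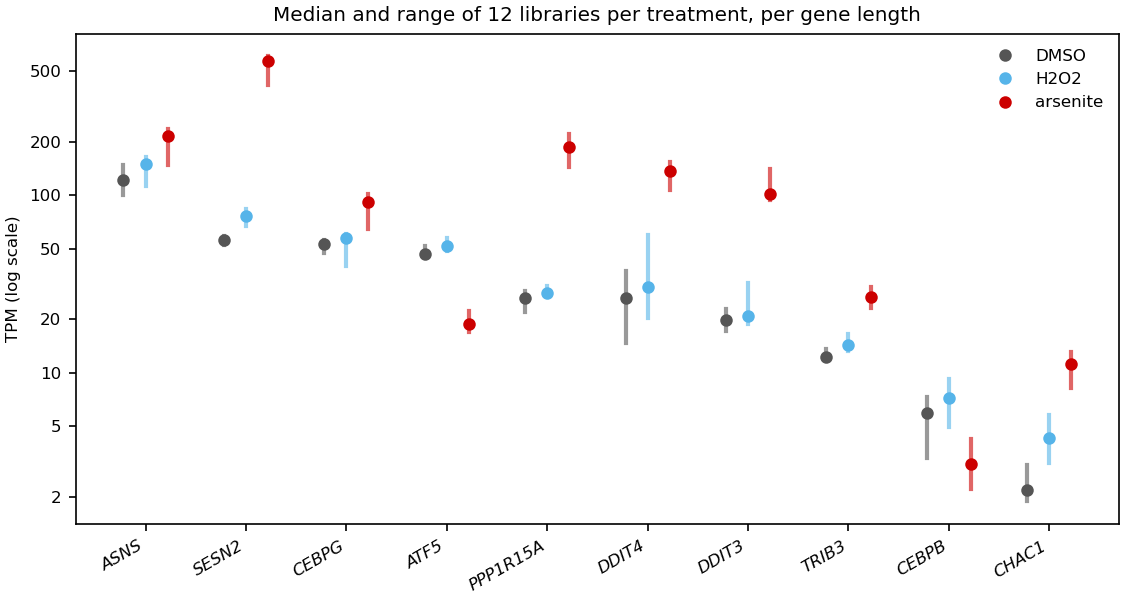
Levels per gene length (TPM, log axis) of the 10 genes in DMSO, H2O2 and arsenite; points are medians and bars run from the lowest to the highest of 12 libraries over the 4 lines. SESN2 had the highest median under arsenite (572 TPM) and ASNS in DMSO (121 TPM), while ATF5 (18.9 TPM) and CEBPB (3.09 TPM) were at their lowest medians under arsenite.

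Arsenite raised 8 of the 10 genes and lowered 2 when averaged over the 4 lines. *SESN2* rose most, 10.6-fold, followed by *PPP1R15A* (7.65-fold), *DDIT3* (5.70-fold), *DDIT4* (5.66-fold) and *CHAC1* (5.00-fold). *TRIB3* (2.28-fold), *CEBPG* (1.81-fold) and *ASNS* (1.80-fold) rose less, *ATF5* fell 2.31-fold and *CEBPB* 1.65-fold. The median log2 fold change of the 10 was 1.76, against 0.06 for all genes tested. Each call is an adjusted p under 0.05 from the quasi-likelihood test of edgeR, adjusted by Benjamini-Hochberg over all 22486 genes. Arsenite changed much of the transcriptome, since 37.4% of genes were called higher and 31.5% lower, and the 10 calls among the effectors are to be read against those shares. Within single lines 10 of the genes were called in vector cells (43.4% of all genes in either direction), 9 in WT cells (53.6%), 10 in D162R R234D cells (44%) and 10 in SxxS cells (43.6%). For 8 of the genes every one of the 12 arsenite libraries lay above every DMSO library, which held for 13.4% of all genes, and for *ATF5* every one lay below, which held for 16.6%. In bulk RNA, a change in a share of the cells cannot be told apart from a change in every cell.

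**Figure D2:**
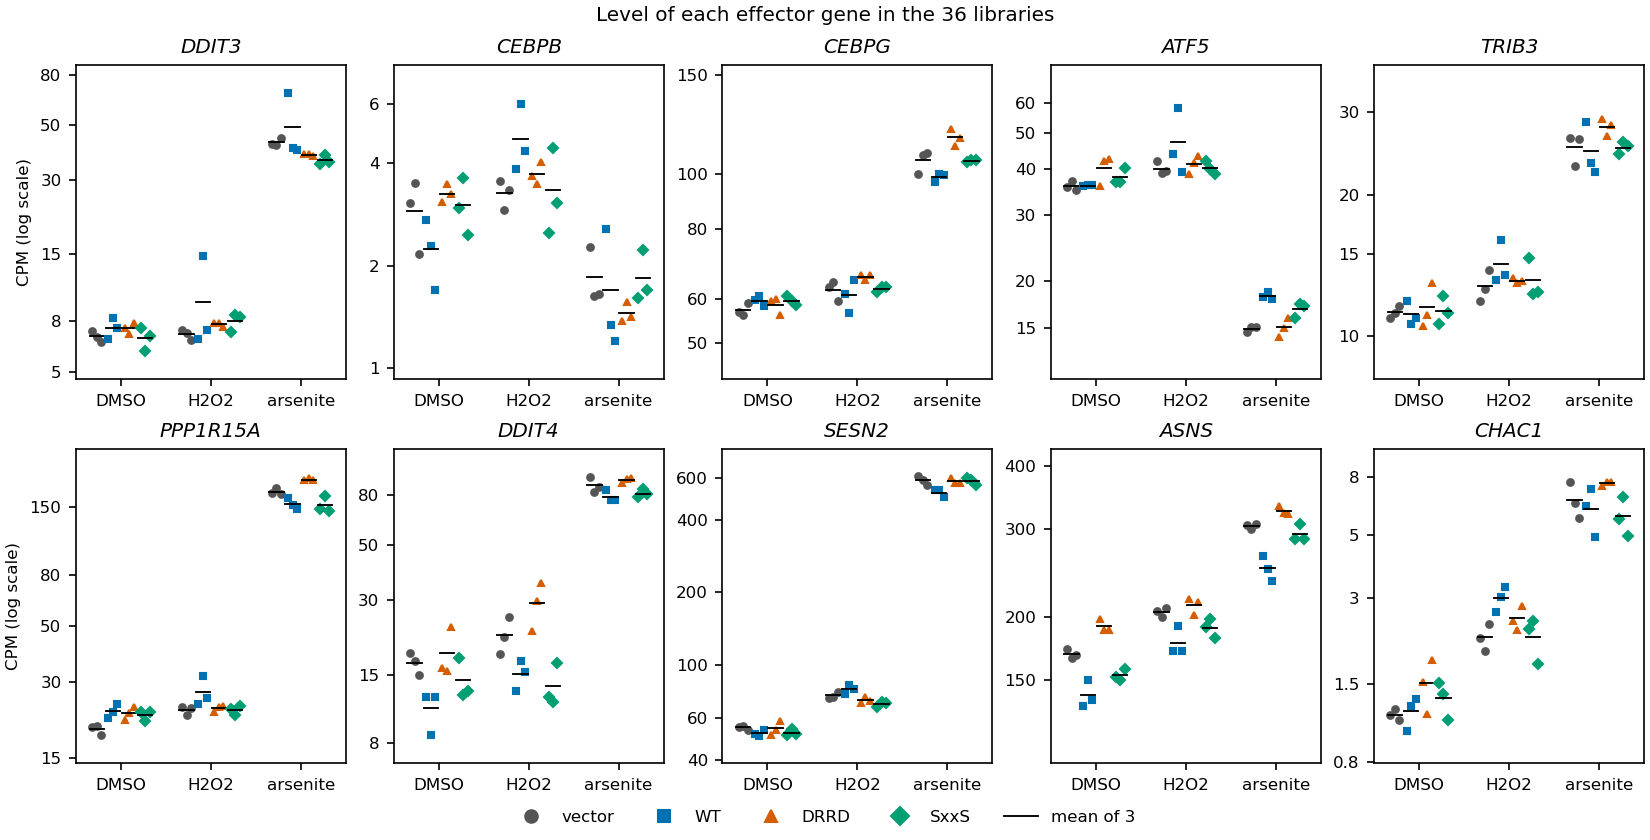
Level of each gene in the 36 libraries (CPM, log axis, a separate scale per panel) by treatment, with symbols for the 4 lines (DRRD, D162R R234D) and a bar at the mean of 3 replicates. Arsenite libraries lie above all DMSO libraries in 8 panels, below them for ATF5, and overlap with them for CEBPB; the WT libraries that stand apart are the highest H2O2 and arsenite points of DDIT3 (14.7 and 67.2 CPM).

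Among the transcription factors, *DDIT3* (chromosome 12, 57516588 to 57521737, minus strand on GRCh38) encodes CHOP, a C/EBP protein that forms dimers with other bZIP factors and is known from cell death in unresolved stress. It ran from 6.05 to 8.27 CPM (median 7.23) in the 12 DMSO libraries and from 34.9 to 67.2 CPM (median 38.8) in the arsenite libraries. The highest value was that of the outlying WT replicate, and the other WT arsenite libraries had 40.3 and 39.5 CPM. The log2 fold change was 2.51 (SE 0.10, edgeR adjusted p = 8.75e-20) and 2.42 without both outlying libraries. Exons of *MARS1* and *MBD6* on the opposite strand and of ENSG00000285133 on the same strand cover 39.6% of the exon bases of *DDIT3*, and the sources used here do not say if strand was used in counting. ENSG00000285133, which shares 8.0% of those bases, rose by 3.92 and *MARS1*, which shares 27.2%, by 0.47 on the log2 scale, so reads of these neighbours cannot be told apart from those of *DDIT3* in the shared bases.

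*CEBPG* (chromosome 19, 33373685 to 33382686) encodes a C/EBP protein without an activation domain of its own that pairs with ATF4. Its CARE match is shown above. The DMSO libraries were narrow, from 56.1 to 60.8 CPM (median 59.2), and arsenite libraries held 96.6 to 120 CPM (median 106). The groups did not overlap, and the log2 fold change was 0.86 (SE 0.03, edgeR adjusted p = 7.94e-23). Replicates in D162R R234D cells under arsenite were 120, 112 and 116 CPM and those in WT cells 96.6, 100 and 99.4 CPM, the highest and the lowest group means.

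*CEBPB* (chromosome 20, 50190830 to 50192668), a single-exon C/EBP gene whose product acts in inflammation and differentiation, was low throughout. It ran from 1.70 to 3.62 CPM (median 3) in DMSO and from 1.2 to 2.56 CPM (median 1.61) in arsenite, and the groups overlapped. The log2 fold change was -0.72 (SE 0.12, edgeR adjusted p = 7.21e-06). In WT cells it was not called (-0.34, adjusted p = 0.255 in the same edgeR test), with 2.56, 1.34 and 1.2 CPM under arsenite, and without both outlying libraries it was called there with -0.85 (adjusted p = 0.00261). Leaving out 1 library ended the call in vector cells for DMSO replicates 1 and 2 and arsenite replicates 2 and 3, where the log2 fold change lay between -0.52 and -0.64, and in SxxS cells for DMSO replicate 2 and arsenite replicates 1 and 3, where it lay between -0.56 and -0.65. *CEBPB-AS1*, on the opposite strand over 12.6% of its exon bases, was at 0.34 on the log2 scale and not called (adjusted p = 0.182).

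*ATF5* (chromosome 19, 49928702 to 49933935) is related to *ATF4* in sequence and, like it, is under translational control. Its mRNA moved against that of most of the other genes. In vector cells it was at 35.7, 37.0 and 35.1 CPM in DMSO and at 14.6, 15.1 and 15.1 CPM in arsenite. Over the lines the range went from 35.1 to 42.5 CPM to 14.2 to 18.7 CPM, with a log2 fold change of -1.21 (SE 0.05, edgeR adjusted p = 6.2e-20). All 4 lines showed the fall, from -0.98 in WT to -1.41 in D162R R234D cells. *NUP62* and *IL4I1* on the opposite strand and *MIR4751* together cover 22.1% of its exon bases, and *NUP62* (-0.38) and *IL4I1* (-0.43) also fell.

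The feedback genes rose. *PPP1R15A* (chromosome 19, 48872212 to 48876059) encodes GADD34, the inducible subunit that directs protein phosphatase 1 to eIF2. Its DMSO libraries held 18.5 to 24.6 CPM (median 22.1) and its arsenite libraries 144 to 196 CPM (median 166). No exon of another gene overlaps it, and the log2 fold change was 2.94 (SE 0.04, edgeR adjusted p = 1.12e-30). The constitutive relative *PPP1R15B* fell by 1.09 on the log2 scale in the same libraries (SE 0.07). *TRIB3* (chromosome 20, 362835 to 397559), a pseudokinase that binds ATF4 and AKT, went from 10.5 to 13.0 CPM (median 11.2) to 22.4 to 29.1 CPM (median 26.1). Its log2 fold change was 1.19 (SE 0.05, edgeR adjusted p = 2.78e-19), with 1.15 to 1.28 in the 4 lines.

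Both genes that restrain growth signalling rose. *SESN2* (chromosome 1, 28259518 to 28282491) encodes sestrin 2, a leucine sensor that restrains mTORC1. It was at 55.3, 55.9 and 53.7 CPM in vector cells in DMSO and at 607, 588 and 561 CPM in arsenite. Over all lines 50.6 to 58.3 CPM became 499 to 607 CPM, and the log2 fold change of 3.41 had the smallest error relative to its size (SE 0.03, edgeR adjusted p = 2.25e-36). *DDIT4* (chromosome 10, 72273919 to 72276036) encodes REDD1, which also restrains mTORC1. Its DMSO libraries had the widest relative range, from 8.62 CPM in a WT library to 23.4 CPM in a D162R R234D library (median 15.3), yet all arsenite libraries lay between 75.9 and 93.9 CPM (median 84.0). The log2 fold change was 2.5 (SE 0.09, edgeR adjusted p = 1.43e-20), and neither gene has exons shared with another gene.

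Both genes of amino acid and glutathione metabolism rose. *ASNS* (chromosome 7, 97851677 to 97872542), asparagine synthetase, carries the CARE match shown above and had the highest DMSO level of the 10. It went from 133 to 198 CPM (median 162) to 236 to 333 CPM (median 303), with a log2 fold change of 0.85 (SE 0.03, edgeR adjusted p = 1.43e-21). A long noncoding RNA on the same strand, ENSG00000284707, covers 49.3% of its exon bases and was called higher with a nearly equal log2 fold change of 0.84. *CHAC1* (chromosome 15, 40952962 to 40956512), a cyclotransferase that degrades glutathione, had the lowest DMSO level, 1.03 to 1.83 CPM (median 1.24). Under arsenite it held 4.93 to 7.71 CPM (median 6.63), with a log2 fold change of 2.32 (SE 0.08, edgeR adjusted p = 2.56e-20). The constitutive relative *CHAC2*, at 26.3, 26.7 and 27.1 CPM in vector cells in DMSO, was not called (0.05, adjusted p = 0.0783).

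H2O2 moved the same genes far less. Averaged over the lines, 9 of the 10 were called higher and none lower, where 6.78% of all genes were called higher, and the median log2 fold change was 0.25 against 0.01 for all genes. *CHAC1* rose most, 1.89-fold, and *SESN2*, *CEBPB*, *DDIT4*, *ASNS*, *TRIB3*, *ATF5*, *PPP1R15A* and *CEBPG* rose by 0.46 to 0.10 on the log2 scale. *DDIT3* was not called at 0.17 (SE 0.10, edgeR adjusted p = 0.291). Without both outlying libraries the same edgeR test again called 9, and *DDIT3* stood at 0.06 (adjusted p = 0.314).

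*CHAC1* was at 1.76 to 3.29 CPM (median 2.48) in the 12 H2O2 libraries, and only the lowest of them, in SxxS cells, lay under the highest DMSO library at 1.83 CPM. Its log2 fold change was 0.92 (SE 0.09, edgeR adjusted p = 9.09e-09). *SESN2* ran from 66.7 to 82.1 CPM (median 73.2), and was the 1 gene of the 10 for which every H2O2 library lay above every DMSO library, which held for 0.551% of all genes. Its log2 fold change was 0.46 (SE 0.03, edgeR adjusted p = 1.36e-13). The *CEBPB* call, with 2.49 to 5.99 CPM (median 3.60) in H2O2 and a log2 fold change of 0.40 (SE 0.12, edgeR adjusted p = 0.0265), ended without vector DMSO, WT DMSO or SxxS DMSO replicate 3 or SxxS H2O2 replicate 2 (adjusted p = 0.0529 to 0.0655). The direction of *CEBPB* and *ATF5* was thus opposite under the agents, higher with H2O2 and lower with arsenite. In single lines the rise with H2O2 was called only in WT cells for both, and the log2 fold changes in the other lines were 0.14 to 0.19 for *CEBPB* and 0.04 to 0.16 for *ATF5*, while the interaction over the lines was called for neither. Tested directly, arsenite exceeded H2O2 for the 8 genes it raised and lay below it for *CEBPB* (-1.12, SE 0.12) and *ATF5* (-1.37, SE 0.05), all 10 called, where 37.3% of all genes were called higher and 31.3% lower.

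**Figure D3:**
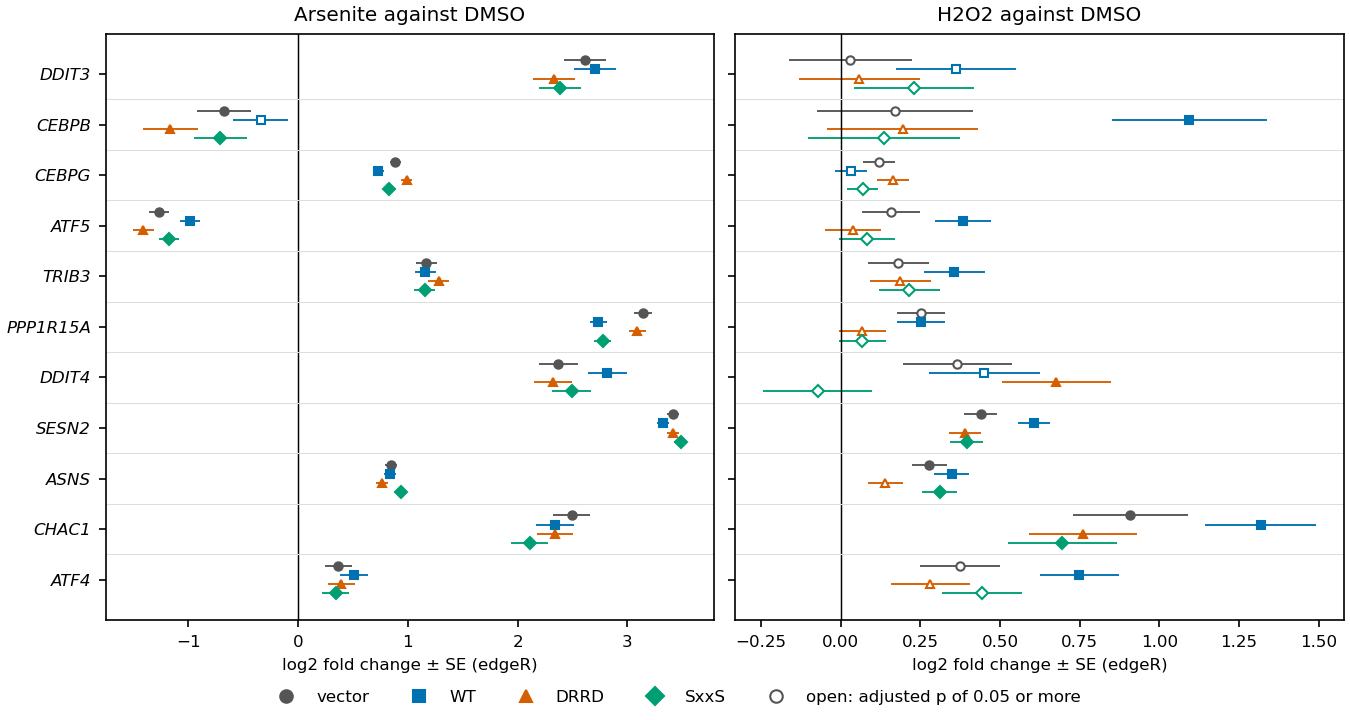
Log2 fold changes with standard errors against DMSO in each of the 4 lines (DRRD, D162R R234D), for arsenite and H2O2 on separate scales; filled symbols passed an adjusted p of 0.05. SESN2 passed in every line under both agents, CEBPB and ATF5 lie left of 0 with arsenite and right of 0 with H2O2, and WT cells, which hold the outlying libraries, had 7 filled symbols among the 10 genes with H2O2, against 3 in each other line.

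Single lines gave fewer calls with H2O2. In vector cells *CHAC1* (0.91), *SESN2* (0.44) and *ASNS* (0.28) were called higher, where 0.712% of all genes were. In D162R R234D cells these were *DDIT4* (0.68), *CHAC1* (0.76) and *SESN2* (0.39), against 0.503%, and in SxxS cells *CHAC1* (0.70), *SESN2* (0.40) and *ASNS* (0.31), against 0.409%. WT cells had 7, with *CHAC1* at 1.32, *CEBPB* at 1.09, *SESN2* at 0.61, *ATF5* at 0.38, *TRIB3* at 0.36, *ASNS* at 0.35 and *PPP1R15A* at 0.25, against 5.8%. WT H2O2 replicate 2 was the highest library of *ATF5* (58.2 CPM, against 43.7 and 39.2 in the other WT libraries), of *PPP1R15A* (31.8, against 24.5 and 25.9) and of *DDIT3* (14.7, against 6.81 and 7.38). The *TRIB3* call in WT cells ended without WT DMSO replicate 2 or 3 or H2O2 replicate 2 (edgeR adjusted p = 0.0677 to 0.177), and that of *PPP1R15A* without DMSO replicate 1 or 2 or H2O2 replicate 2 (0.114 to 0.394). Without both outlying libraries WT cells kept 5 calls, *TRIB3*, *CHAC1*, *SESN2*, *ASNS* and *CEBPB*, against 5.23% of all genes called higher, and D162R R234D cells had 5, with *ASNS* (0.14) and *CEBPG* (0.16) added, against 5.51%. *DDIT3* in WT cells was then at -0.09, and with both libraries at 0.36. A fit of only the WT DMSO and H2O2 libraries called 0 of the 10 by edgeR (1 of all genes). In that fit 6 of the 10 had an unadjusted p under 0.05, and the number of all genes under it is not given here. DESeq2 on all libraries called 7 of the 10, where it called 2589 of all genes. The fit of all 36 libraries and the one without the outlying pair both called *SESN2* in all 4 lines, and in the fit of WT libraries alone it was not called (0.60, edgeR adjusted p = 0.339). The *DDIT4* call in D162R R234D cells rested on 16.1, 15.6 and 23.4 CPM in DMSO and 22.7, 29.8 and 35.4 CPM in H2O2, which overlap, and it ended without DMSO replicate 1 or 2 or H2O2 replicate 2 or 3 (log2 fold change 0.52 to 0.66). The *CHAC1* call there ended without DMSO replicate 1 or 2 or H2O2 replicate 1 or 3, and in SxxS cells it ended without any DMSO library or H2O2 replicate 1 or 2, with log2 fold changes of 0.59 to 0.79 over both lines.

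*ATF4* mRNA, the reference, did not follow the order of its effectors. It rose by 0.40 (SE 0.06) with arsenite and by 0.46 (SE 0.06) with H2O2 on the log2 scale, and both were called by edgeR (adjusted p = 1.54e-06 and 4.54e-06). Between the agents it differed by -0.06 (SE 0.06, edgeR adjusted p = 0.407), while *SESN2*, *PPP1R15A*, *DDIT3* and *DDIT4* differed by 2.95, 2.78, 2.34 and 2.15. Its DMSO libraries ran from 497 to 613 CPM, H2O2 libraries from 672 to 1180 and arsenite libraries from 604 to 928 CPM, both upper ends being the outlying WT libraries. Without them the log2 fold changes were 0.34 and 0.39.

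Few of these levels differed between the lines in the tests. In DMSO, *ASNS* alone was called, lower in WT than in vector cells, with 133, 150 and 137 CPM against 173, 166 and 168 CPM. The log2 fold change was -0.27 (SE 0.06, edgeR adjusted p = 0.0271), where 0.196% of all genes were called. The groups did not overlap, yet the call ended in 5 of the 6 fits that left out 1 of these libraries, all but the one without WT replicate 2. In D162R R234D cells *ASNS* was at 198, 189 and 189 CPM and in SxxS cells at 152, 150 and 158 CPM, and neither was called against vector cells. No effector was called for D162R R234D or SxxS cells against vector cells by edgeR (0.0267% and 0.0178% of all genes). In edgeR 2 effectors each had an unadjusted p under 0.05, as did 702 and 744 of all genes. DESeq2 also called 0, with 2 each (723 and 764 of all genes).

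Under arsenite *ASNS* was again lower in WT than in vector cells, at 265, 250 and 236 CPM against 305, 300 and 307 CPM (log2 fold change -0.28, SE 0.06, edgeR adjusted p = 0.00682), against 1.33% of all genes. No effector was called for the other lines (0.0222% of genes for D162R R234D and 0.0267% for SxxS). In edgeR 2 and 1 effectors had an unadjusted p under 0.05, against 720 and 777 of all genes. DESeq2 called 0, with the same numbers of effectors (731 and 855 of all genes). Without both outlying libraries *ASNS* (-0.33), *PPP1R15A* (-0.21), *SESN2* (-0.19) and *ATF5* (0.28) were called between WT and vector cells in arsenite, against 2.96% of all genes, and *ASNS* (-0.27) and *PPP1R15A* (0.24) in DMSO, against 2.99%. The *ATF5* libraries were 18.2, 18.7 and 17.9 CPM in WT and 14.6, 15.1 and 15.1 CPM in vector cells, and did not overlap.

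Whether the lines differed in their response was tested as an interaction. For arsenite over all 4 lines edgeR called 0 of the 10 (0% of all genes), with 3 at an unadjusted p under 0.05, and DESeq2 called 0, also with 3. For H2O2 edgeR called 0 (0.685% of genes), with 4 at an unadjusted p under 0.05 (1970 of all genes), and DESeq2 0, with 3 (2171 of all genes). Between the WT and D162R R234D lines, whose TXNL1 differs in proteasome binding and which may differ otherwise, edgeR called 0 (0% of genes). There 5 of the 10 had an unadjusted p under 0.05 in edgeR, as did 3603 of all genes. DESeq2 called *CEBPG* (-0.26, adjusted p = 0.0191), where it called 171 of all genes. Without both outlying libraries *PPP1R15A* passed the test over 4 lines (edgeR adjusted p = 0.00183), where 0.205% of all genes did. Its arsenite log2 fold changes in that fit were 3.12 (vector), 3.08 (D162R R234D), 2.76 (SxxS) and 2.67 (WT). The libraries of *PPP1R15A* under arsenite were 170, 178 and 168 CPM with vector, 191, 196 and 191 with D162R R234D, 147, 165 and 144 with SxxS and 162, 152 and 147 CPM with WT TXNL1, so D162R R234D lay above all others. In the same fit WT responded less than D162R R234D for *PPP1R15A* (-0.41, SE 0.08) and *CEBPG* (-0.25, SE 0.06), and the fall of *ATF5* was smaller by 0.41 (SE 0.09), where 1.39% of genes were called. With all libraries the differences were -0.36 for *PPP1R15A*, 0.43 for *ATF5* and -0.26 for *CEBPG*, about as large, and edgeR called none of them (adjusted p = 0.166 to 0.169).

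Relatives of the 10 genes, *ATF4* among them, were compared as a list. Like the 10 genes, it was chosen with earlier results of these data known. With arsenite 8 of 10 tested relatives were called, 7 of them lower, where 31.5% of all genes were called lower and 37.4% higher: *TRIB1* (-1.85), *DDIT4L* (-1.68), *SESN1* (-1.57), *PPP1R15B* (-1.09), *CEBPA* (-1.07), *CEBPD* (-1.06) and *SESN3* (-0.74). *ATF4* was higher, *TRIB2* (0.06) and *CHAC2* (0.05) were not called, and *CEBPE* had 0 counts in the vector DMSO libraries and was not tested. The median of the list was -1.06 against 1.76 for the effectors. With H2O2, *ATF4*, *TRIB2* (0.26), *CEBPA* (0.19) and *SESN1* (0.17) were called higher and *CHAC2* (-0.09) lower. Of all genes 2716 were called with H2O2, 1524 of them (6.78% of all genes) higher. Members of 1 family thus went opposite ways with arsenite: *SESN2*, *DDIT4*, *TRIB3* and *PPP1R15A* rose while *SESN1*, *DDIT4L*, *TRIB1* and *PPP1R15B* fell.

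**Figure D4:**
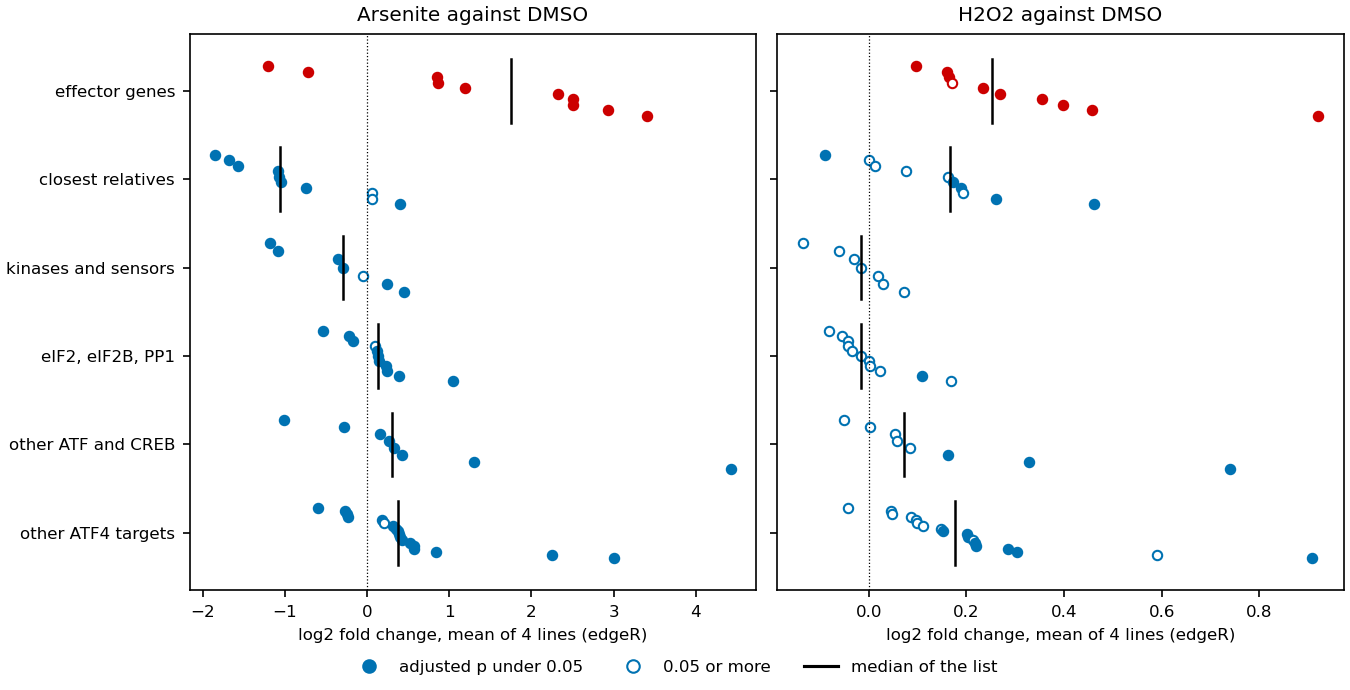
Log2 fold changes, averaged over 4 lines, of the 10 effector genes (red) and of lists from the same pathway (blue) with arsenite and H2O2 on separate scales; filled symbols passed an adjusted p of 0.05 and the black lines are medians. With arsenite the effectors have the highest median (1.76) and their closest relatives, ATF4 included, the lowest (-1.06). The genes and lists were chosen with earlier results of these data known, so the order of the medians is a description only.

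Genes upstream of ATF4 moved both ways. The counts of called genes are again to be read against the shares of all genes, 37.4% higher and 31.5% lower with arsenite and 6.78% higher with H2O2. Of 7 kinases and sensors, 6 were called with arsenite, *DELE1* (0.45) and *OMA1* (0.25) higher, and *EIF2AK3* (-1.18), *GCN1* (-1.09), *EIF2AK4* (-0.35) and *EIF2AK2* (-0.30) lower, while *EIF2AK1*, which encodes the kinase HRI, was at -0.05 and not called by edgeR (adjusted p = 0.0861), while DESeq2 called all 7. With H2O2 edgeR called 0 of the 7, with 2 at an unadjusted p under 0.05 (5390 of all genes), and DESeq2 also called 0. Of 11 subunits of eIF2, its exchange factor eIF2B and the phosphatase, 10 were called with arsenite, 7 higher, led by *EIF2S2* (1.04), and 3 lower, led by *PPP1CC* (-0.54), and 1 with H2O2, *EIF2S3* (0.11). All 8 other ATF and CREB genes were called with arsenite, 6 higher and 2 lower, from *ATF3* (4.43) and *JDP2* (1.3) to *NFE2L1* (-1.01), and 3 with H2O2, *JDP2* (0.74), *ATF3* (0.33) and *NFE2L1* (0.16), all higher.

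Of 20 other genes reported as ATF4 targets, 18 were tested and *FGF21* and *NUPR1* had too few counts. With arsenite 13 were called higher, *CTH* (3.01) and *SLC3A2* (2.25) most, 4 lower, *VLDLR* (-0.60) most, and *GDF15* (0.21) was not called, against 37.4% of all genes called higher and 31.5% lower. With H2O2 8 were called, all higher, against 6.78% of all genes, with *SLC7A11*, the cystine transporter, at 0.91 and thus close to its arsenite value of 0.84 (difference -0.07, SE 0.12, edgeR adjusted p = 0.598). This list was also chosen with earlier results of these data known. Its median was 0.38 with arsenite and 0.18 with H2O2, under those of the 10 effectors (1.76 and 0.25).

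The pattern shared by the 8 genes that rose was compared with all genes above a mean of 1 CPM. Over the 12 group means, 76 of 15664 genes had a Pearson r over 0.99 with the mean profile of the 8. Among the closest were *YARS1*, a tyrosyl-tRNA synthetase (r = 0.998), *FOSB*, *CACNB1* and *AHSA1*. Their log2 fold changes with arsenite were 1.10, 4.38, 2.06 and 0.99, and with H2O2 0.16, 0.54, 0.35 and 0.12. The 12 points share the 3 treatments, so such a correlation describes mainly the split of arsenite from the rest.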

How the data were processed

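Messenger RNA of 36 libraries was examined. The authors aligned 100-bp paired-end reads to GRCh38 with qAlign (QuasR) and deposited raw read counts per gene with a gene length. The labels describe strand-specific libraries, and the annotation release, the use of strand and the counting of mates are not given in the sources used here. Gene identifiers were matched to GENCODE 44 (61415 of 61587) for symbols and exon overlaps. Promoter windows are from RefSeq.

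Genes with at least 10 counts over the 3 vector DMSO libraries, the filter in the study's methods, were kept (22486). In R 4.3.3, edgeR 4.0.16 (which calls limma 3.58.1) was used to fit the counts, with TMM factors, one mean per group and robust quasi-likelihood dispersions (biological coefficient of variation 12.4%). CPM uses TMM-scaled totals, TPM the deposited lengths. Scaling by DESeq2's size factors or by totals gave a median log2 fold change of all genes of 0.03 or 0.01 with arsenite, against 0.06. Totals were at least 42072410 counts, and the lowest count of a gene in a library was 53 for CHAC1 and 56 for CEBPB, where counting error is not small. Code was tested on simulated data. The 10 genes, the lists and the test were chosen with earlier results of these data known. Every effector, every relative and, of the other lists, the called genes with the largest change are named, and genes beyond that were chosen after their values were seen. No replicate pair was a duplicate library (chi-square per degree of freedom 3.31 or more). Replicate numbers were checked for pairing in 14 comparisons by the correlation of deviations from group means (r = -0.41 to 0.45). Only D162R R234D cells with H2O2 had all 3 pairs over 0.1 (0.18 to 0.41). Alternatives were other scalings, filters and tools (DESeq2 1.42.0), a replicate block, halved counts, only the groups compared and left-out libraries. A marker and a gene of similar pattern are not reported here.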

Additional observations from a re-analysis of the deposited data

How the results depend on the processing

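Of 2046 alternative values for single genes, ATF4 included, 1960 kept their direction and their side of the threshold, 57 lost and 19 gained the call, 10 changed sign without being called in either fit, and 0 called values changed sign. The calls averaged over the lines were firmest: 10 for arsenite and for arsenite against H2O2 in each alternative, and 8 or 9 for H2O2. Of all genes, H2O2 over the lines gave 2716 calls in the main fit. It gave 1832 with no filter beyond 1 count and 6430 without both outlying libraries. When the fit held no other groups than those compared, H2O2 gave 5 calls in vector, 0 in WT and 1 in D162R R234D cells. Of all genes such fits called 2808, 1 and 178, against 303, 1813 and 231 in the main fit. WT against vector gave 2 in DMSO and 0 in arsenite (466 and 0 of all genes, against 44 and 299). SxxS against vector gave 1 in both (220 and 83 of all genes, against 4 and 6). D162R R234D against vector gave 1 in arsenite (91 of all genes, against 5). Without both outlying WT libraries H2O2 gave 5 in D162R R234D cells (2328 of all genes). WT against vector then gave 2 in DMSO and 4 in arsenite (673 and 665 of all genes). The interactions gave 1 over 4 lines and 3 between WT and D162R R234D (46 and 313 of all genes). With no filter beyond 1 count WT against vector gave 0 in DMSO and in arsenite (11 and 68 of all genes). With total counts it gave 3 in arsenite (451 of all genes), and with DESeq2 also 3 (1129 of all genes). For the interaction of WT and D162R R234D, DESeq2 gave 1 (171 of all genes, against 0 by edgeR). Leaving out single libraries gave 4 to 9 calls for H2O2 in WT (4 without H2O2 replicate 2), 1 to 3 in D162R R234D, 0 to 1 for WT against vector in DMSO and 1 to 2 in arsenite (2 without arsenite replicate 2). The numbers of all genes called in those fits are not given here. A change in these counts thus cannot be told apart from a change over all genes. CEBPG with H2O2 over the lines lost its call with total counts (adjusted p = 0.0717) and with no filter (0.0834). The causes were not tested, beyond the fewer libraries or other genes that each alternative holds. The replicate block gave the same number of calls among the 10 genes in every comparison, with 3 for H2O2 in D162R R234D cells, where the numbers paired (240 of all genes against 231), and 10 for arsenite over the lines. With halved counts CHAC1 lost its H2O2 call in SxxS cells (adjusted p = 0.0621).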
